A study of Homo sapiens with 8 samples.

Results

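The 40 genes described here encode the machinery of NF-kB signalling, namely the NF-kB subunits, the IkB proteins, the kinase complexes, the ubiquitin editors, the TRAF and cIAP adaptors, and the TNF receptors and ligands that feed into it. They were taken by name from the canonical and alternative branches of the pathway, 25 genes in the canonical and 15 in the alternative branch, out of 20149 protein-coding genes of the annotation. FLI1 binding was measured by ChIP-Seq, with a rabbit polyclonal antibody against FLI1, in untreated OCI-Ly1 and VAL cells. Both are established cell lines of germinal center B-cell (GCB) diffuse large B-cell lymphoma, so that each line stands for 1 tumor. Each line had 2 FLI1 replicates, and 4 samples of input DNA were part of the series but were not analysed here. For each gene, the best FLI1 peak was the one with the highest −log10 q among the peaks centred within 3 kb of any of its transcription start sites (TSS), and the gene was called bound where this value was at least 3, a q-value of 0.001.

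NF-kB is a family of dimeric transcription factors kept in the cytoplasm by IkB proteins. In the canonical branch, TNF, CD40 or antigen receptor signals run through TRAF adaptors, RIPK1 and the TAK1 kinase (MAP3K7 with its TAB partners) to the IKK complex of IKBKB, CHUK and IKBKG, which marks IkB for degradation. In the alternative branch, BAFF, CD40 or lymphotoxin receptors release MAP3K14 (NIK) from a complex of TRAF2, TRAF3 and the cIAPs, and MAP3K14 and CHUK then drive the processing of NFKB2, the partner of RELB. FLI1 is an ETS factor, whose DNA-binding domain reads a GGAA core, most often as CCGGAA followed by A or G.

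The usable libraries were replicate 2 of OCI-Ly1 (OCI-Ly1 r2), with 5354 passing peaks, and both replicates of VAL (VAL r1 and VAL r2), with 973 and 6474. Replicate 1 of OCI-Ly1 held 37 intervals, 33 of them over 1 Mb, and all 40 genes lay inside one of them, so it carried no site for any gene and was left out. OCI-Ly1 is therefore known from 1 library. Reads were inferred with the formula of the MACS caller, whose format the lists have, although the study's methods name HOMER, so read counts and their intervals rest on that assumption. On this basis a peak needed at least 6 reads at its summit to pass in OCI-Ly1 r2 and VAL r2, and at least 8 in VAL r1. Since there is no treatment and 1 usable library in OCI-Ly1, no test was made, and counts of the 40 genes are set beside the share of the other 20109 protein-coding genes that met the same rule.

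The sequences under 4 summits show the kinds of site that the NF-kB genes held. The stretches lie just upstream of the gene, are written 5′ to 3′ in the direction of the gene on GRCh37, and have GGAA in capitals on either strand (TTCC where it lies on the other strand). The first is the 100 bases before the start of NFKB1 (chr4:103422387-103422486, plus strand), the second the 60 bases before TRAF4 (chr17:27070969-27071028, plus strand), the third the 60 bases before LTB (chr6:31550300-31550359, minus strand), and the fourth a stretch of 100 bases that ends 200 bases upstream of MAP3K7 (chr6:91297006-91297105, minus strand).
NFKB1: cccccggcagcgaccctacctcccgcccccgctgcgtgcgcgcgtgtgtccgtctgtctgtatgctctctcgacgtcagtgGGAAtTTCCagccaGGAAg
TRAF4: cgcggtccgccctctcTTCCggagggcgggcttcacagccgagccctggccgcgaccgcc
LTB: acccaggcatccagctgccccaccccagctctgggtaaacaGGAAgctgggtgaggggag
MAP3K7: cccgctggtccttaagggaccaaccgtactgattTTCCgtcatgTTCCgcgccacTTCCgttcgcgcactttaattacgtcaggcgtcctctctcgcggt
The TRAF4 core belongs to a full CCGGAAG read on the minus strand, while the other 3 stretches hold GGAA cores outside CCGGAAA or CCGGAAG. The NFKB1 stretch also holds 1 match to the kB motif, the element that NF-kB dimers themselves bind, and its GGAA and TTCC overlap that match. It overlaps an exon of a long non-coding RNA on the opposite strand.

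Of the 40 genes, 11 (27.5%) were bound in OCI-Ly1 r2, beside 19% of the other protein-coding genes, and 20 (50%) were bound in VAL r2, beside 20.8%. In VAL r1 the count was 2 (5%), beside 3.14%. Taken over the libraries, 21 genes (52.5%) were bound in either line, beside 27.4%. Binding in both lines was called for 10 genes (25%), beside 12.6%, and binding in all 3 libraries for 2 genes (5%), beside 2.73%. The share of the NF-kB genes was above that of the other genes in OCI-Ly1 r2, in VAL r2, in either line and in both lines. For both lines this depended on VAL r2 and on the threshold. Without VAL r2 the count in both lines was 2, beside 2.81%. At a −log10 q of at least 5 it was 4, beside 7.58%, and at 2 it was 19, beside 20%. The counts of 2 and 4 were near the background share. The genes were chosen with earlier results of these data known, so the shares are descriptions. The counts in VAL r1 and in all 3 libraries were near the background share, and with a window of 1 kb, with TSS of protein-coding transcripts or with the first start of each gene VAL r1 kept 1 gene (2.5%), beside 2.82%, 2.89% and 2.61%.

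The median of the best −log10 q, over bound and unbound genes alike, was 1.97 in OCI-Ly1 r2 for the 40 genes and 1.22 for the other protein-coding genes. It was 2.96 and 1.63 in VAL r2, and 0.183 for both in VAL r1. The NF-kB genes had a median of 8 TSS against 5, and a median promoter window of 15.8 kb against 12.1 kb. Among the genes with a window of up to 15.8 kb, 9 of 20 NF-kB genes (45%) and 23.1% of the others were bound in either line, and among the genes with a wider window 12 of 20 (60%) and 34.9%. With the first start of each gene only, which leaves 1 window per gene, 8 of the 40 genes were bound in OCI-Ly1 r2 and 14 in VAL r2, beside 16.1% and 17.4%. In either line 15 were bound and in both lines 7, beside 22.9% and 10.7%. The OCI-Ly1 r2 count then came near the background share. The part of window size in the shares was not otherwise tested.

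**Figure D1:**
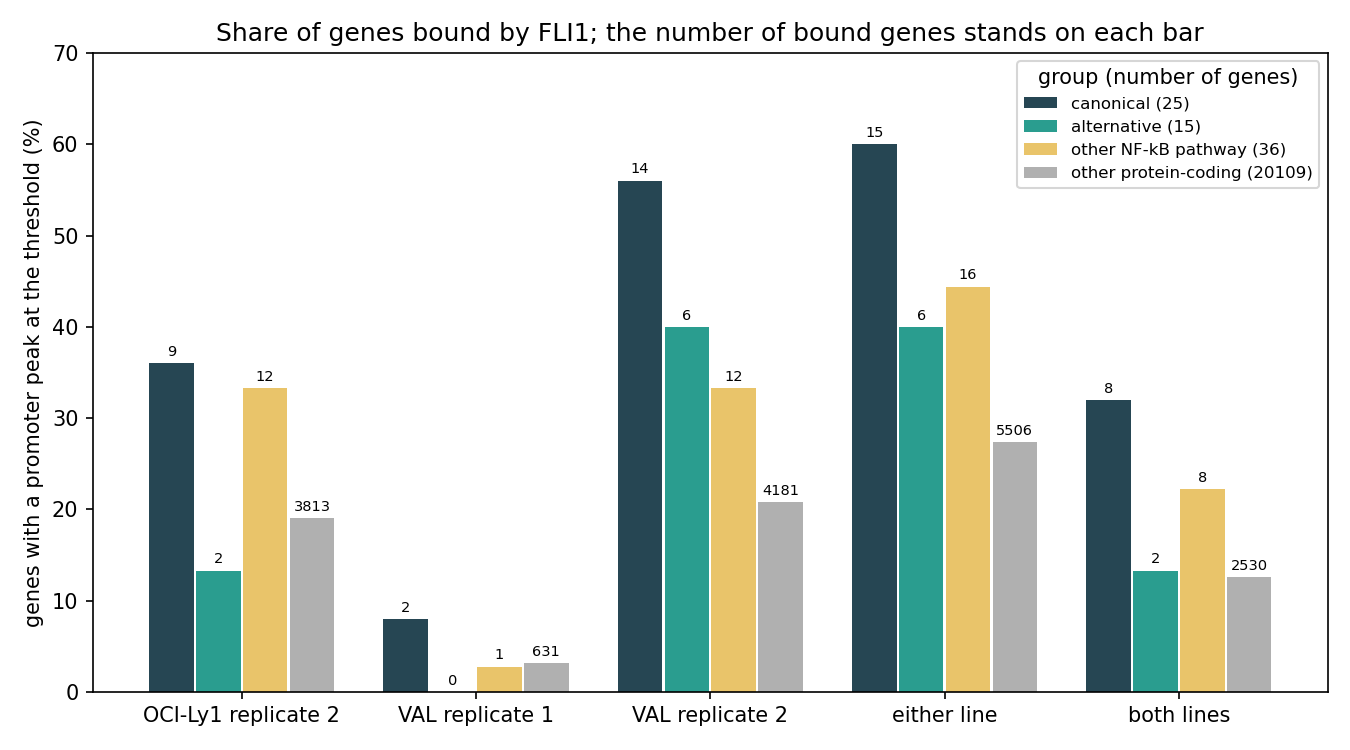
Share of genes (vertical axis, percent) with a promoter peak at a −log10 q of at least 3, in each usable library, in either line and in both lines (horizontal axis). Bars stand for the canonical branch, the alternative branch, other NF-kB pathway genes and all other protein-coding genes, with the number of bound genes on each bar; canonical genes were bound in either line at 60% and other protein-coding genes at 27.4%.

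The canonical branch had 15 of its 25 genes bound in either line (60%) and the alternative branch 6 of 15 (40%), beside 27.4% of the other genes. In OCI-Ly1 r2 the counts were 9 (36%) and 2 (13.3%), beside 19%, the latter near the background share on 15 genes. In VAL r2 they were 14 (56%) and 6 (40%), beside 20.8%. Both genes bound in VAL r1 were canonical, and of the 10 genes bound in both lines 8 were canonical and 2, NFKB2 and LTB, alternative. The order of the branches depended on where shared components were put, because 14 genes act in both. Without these 14, 11 of 20 canonical genes (55%) and 4 of 6 alternative genes (66.7%) were bound in either line, which turned the order. Of the 14 shared genes 6 (42.9%) were bound in either line. In OCI-Ly1 r2, 7 of the 20 canonical genes acting in 1 branch (35%) and 2 of the 6 alternative ones (33.3%) were bound, beside 19%. Without VAL r2, 9 canonical (36%) and 2 alternative genes (13.3%) were bound in either line, beside 19.3%, the alternative count again near the background share.

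By role, counts of bound genes are small and are read against the 27.4% of other genes bound in either line. Of the 5 NF-kB subunits 2 (40%), NFKB1 and NFKB2, were bound, both in both lines, while REL, RELA and RELB were bound in none. NFKB1 is the precursor of the p50 subunit of canonical dimers. Its best peak had a −log10 q of 4.98 in OCI-Ly1 r2 (fold enrichment over the local background 6.18, 7 reads with a 95% Poisson interval of 2.81 to 14.4), 0.764 in VAL r1 (9 reads, not passing) and 12.6 in VAL r2 (fold 10.2, 12 reads, 6.20 to 21). The summits of the passing peaks lay 50 and 20 bp upstream of the TSS, inside the stretch printed above. NFKB2, the precursor of the p52 subunit of the alternative branch, had 3.62 in OCI-Ly1 r2, 0.234 in VAL r1 and 6.59 in VAL r2, with 6 reads in OCI-Ly1 and 9 in VAL r2. Its summits fell in a non-coding exon part, 78 and 5 bp past a TSS. The intervals of NFKB1 and NFKB2 overlapped between the lines.

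The transactivating subunits stayed under the threshold. REL (c-Rel) came nearest, with 1.49 in OCI-Ly1 r2, 0.183 in VAL r1 and 2.85 in VAL r2, the last from 6 reads 114 bp upstream of a TSS. RELA, the p65 partner of p50, had 1.61, 0.183 and 1.51. RELB, the partner of p52, had 0.873, 0.183 and 2.03. The best listed peaks of RELA and RELB lay nearest to different start sites in OCI-Ly1 r2 and VAL r2.

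REL had a strong peak outside its promoters. At chr2:61067980-61068649, 40.3 kb from its nearest TSS and outside the gene, VAL r2 had a −log10 q of 30.6 (fold 17.4, 27 reads), the highest of any peak assigned to an NF-kB gene. VAL r1 had 4.82 there (18 reads), with the summits of both VAL replicates 2 bp apart. In OCI-Ly1 r2 the value was 1.36, from 4 reads. The site held no CCGGAAA or CCGGAAG within 50 bp of the summit, and REL was its nearest protein-coding gene by distance only.

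Of the 5 IkB proteins, 4 (80%, beside 27.4%) were bound in a line. NFKBIA (IkB-alpha), the main inhibitor of the canonical branch, was the 1 gene bound in OCI-Ly1 and in no VAL library, beside 6.38% of the other genes. It had 5.1 in OCI-Ly1 r2 (7 reads, 2.81 to 14.4), 0 in VAL r1 and 2.27 in VAL r2 (5 reads, 1.62 to 11.7), so that the intervals overlapped. NFKBIB (IkB-beta) was bound in both lines, with 3.11 (6 reads), 0.495 and 10.5 (11 reads) in OCI-Ly1 r2, VAL r1 and VAL r2. Its peak was shared with SIRT2, whose TSS lay 117 bp from the summit in OCI-Ly1 and 128 bp in VAL r2, against 1 and 10 bp for NFKBIB.

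NFKBIE (IkB-epsilon) passed in VAL r2 alone, with 2.62, 0.757 and 6.59, but this peak lay downstream of the gene. Its summit was 2652 bp from the TSS of NFKBIE and 36 bp from that of SLC35B2, so NFKBIE was not the closest gene to that peak. NFKBIE had 2 passing promoter peaks in VAL r2, this one included. With each peak given only to the gene with the closest TSS, the canonical branch kept its 15 genes bound in either line, NFKBIE among them. BCL3, an atypical IkB protein that binds p50 and p52 dimers, had 2.89, 0.117 and 3.2, just outside the threshold in OCI-Ly1 r2 and just inside it in VAL r2, with 6 reads in both. NFKBIZ (IkB-zeta), an inducible nuclear member, was bound in none, with 0.873, 0.382 and 1.82.

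The kinase complexes had 7 of 9 genes bound in either line (77.8%, beside 27.4% of the other genes), and with RIPK1 and MAP3K7 both genes that passed in all 3 libraries. RIPK1, the scaffold kinase of the TNF receptor complex, had 13.6 in OCI-Ly1 r2 (fold 10.6, 15 reads, 8.40 to 24.7), 7.35 in VAL r1 (fold 7.43, 14 reads) and 13 in VAL r2 (fold 10.4, 14 reads, 7.65 to 23.5). The OCI-Ly1 and VAL r2 summits lay 20 bp apart in an intron, 276 and 256 bp past a TSS. The VAL r1 peak was a different site, 22889 bp from the OCI-Ly1 summit (chr6:3090970-3093373). Its summit lay in an intron, 2165 bp upstream of another TSS of the gene. At the shared site VAL r1 had 2.01 (10 reads), and at its own site VAL r2 also passed, with 3.87 (6 reads), while OCI-Ly1 r2 had 1.61 (4 reads).

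MAP3K7 (TAK1), the kinase that activates IKK, had 13.5 in OCI-Ly1 r2 (fold 9.89, 18 reads, 10.7 to 28.4), 3 in VAL r1 (14 reads) and 6.02 in VAL r2 (8 reads, 3.45 to 15.8). The value in VAL r1 sat at the threshold itself. The OCI-Ly1 and VAL r1 summits lay 69 bp apart upstream of the gene, whereas the best peak of VAL r2 lay 1078 bp from the OCI-Ly1 summit, in an intron, where neither other library listed a peak. At the OCI-Ly1 site VAL r2 had a passing peak too, with 4.42 and 7 reads. MAP3K7 was thus the 1 gene with a peak passing at the same site in all 3 libraries.

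TAB2, a ubiquitin-binding partner of TAK1, was bound in both lines, with 5.19 (8 reads), 0.495 and 11 (11 reads) in OCI-Ly1 r2, VAL r1 and VAL r2. Its partners TAB1, with 1.89, 0.00653 and 4.11, and TAB3, with 2.62, 1.18 and 5.68, passed in VAL r2 alone. For TAB3 the best OCI-Ly1 peak lay at the same site with 5 reads, while the best OCI-Ly1 peak of TAB1 lay 1808 bp upstream of another start site.

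Of the IKK subunits, IKBKG (NEMO), the regulatory subunit, had 12.5 in OCI-Ly1 r2 (fold 10.1, 12 reads), 0.183 in VAL r1 and 4.42 in VAL r2 (fold 5.89, 7 reads). The summits lay 7 and 15 bp from its TSS. IKBKG has a near-identical copy close by, and its values are uncertain to that extent. IKBKB, the catalytic subunit of the canonical branch, had 2, 0.183 and 3.07, just inside the threshold in VAL r2. CHUK, the catalytic subunit of the alternative branch, was bound in none, with 2.62 and 2.70 in OCI-Ly1 r2 and VAL r2, from 5 reads each. CHUK had CCGGAAA or CCGGAAG within 25 bp of the summit in both lines, although its peaks did not pass. MAP3K14 (NIK) was likewise unbound at its promoters, with 2.50, 0 and 1.71.

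None of the 4 ubiquitin editors was bound in any library, beside 27.4% of the other genes in either line. TNFAIP3, which removes ubiquitin chains from RIPK1 and is a negative regulator of the canonical branch, had 1.94 in OCI-Ly1 r2, no listed peak in VAL r1 and 2.70 in VAL r2. The TNFAIP3-interacting proteins TNIP1 and TNIP2 both had 1.61 in OCI-Ly1 r2, and 2.23 and 2.37 in VAL r2. The deubiquitinase CYLD had 1.61, 0 and 0.952. Their best peaks had 3 to 5 reads in these 2 libraries, under the 6 reads that a passing peak needed, so that binding was not detectable at this depth.

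**Figure D2:**
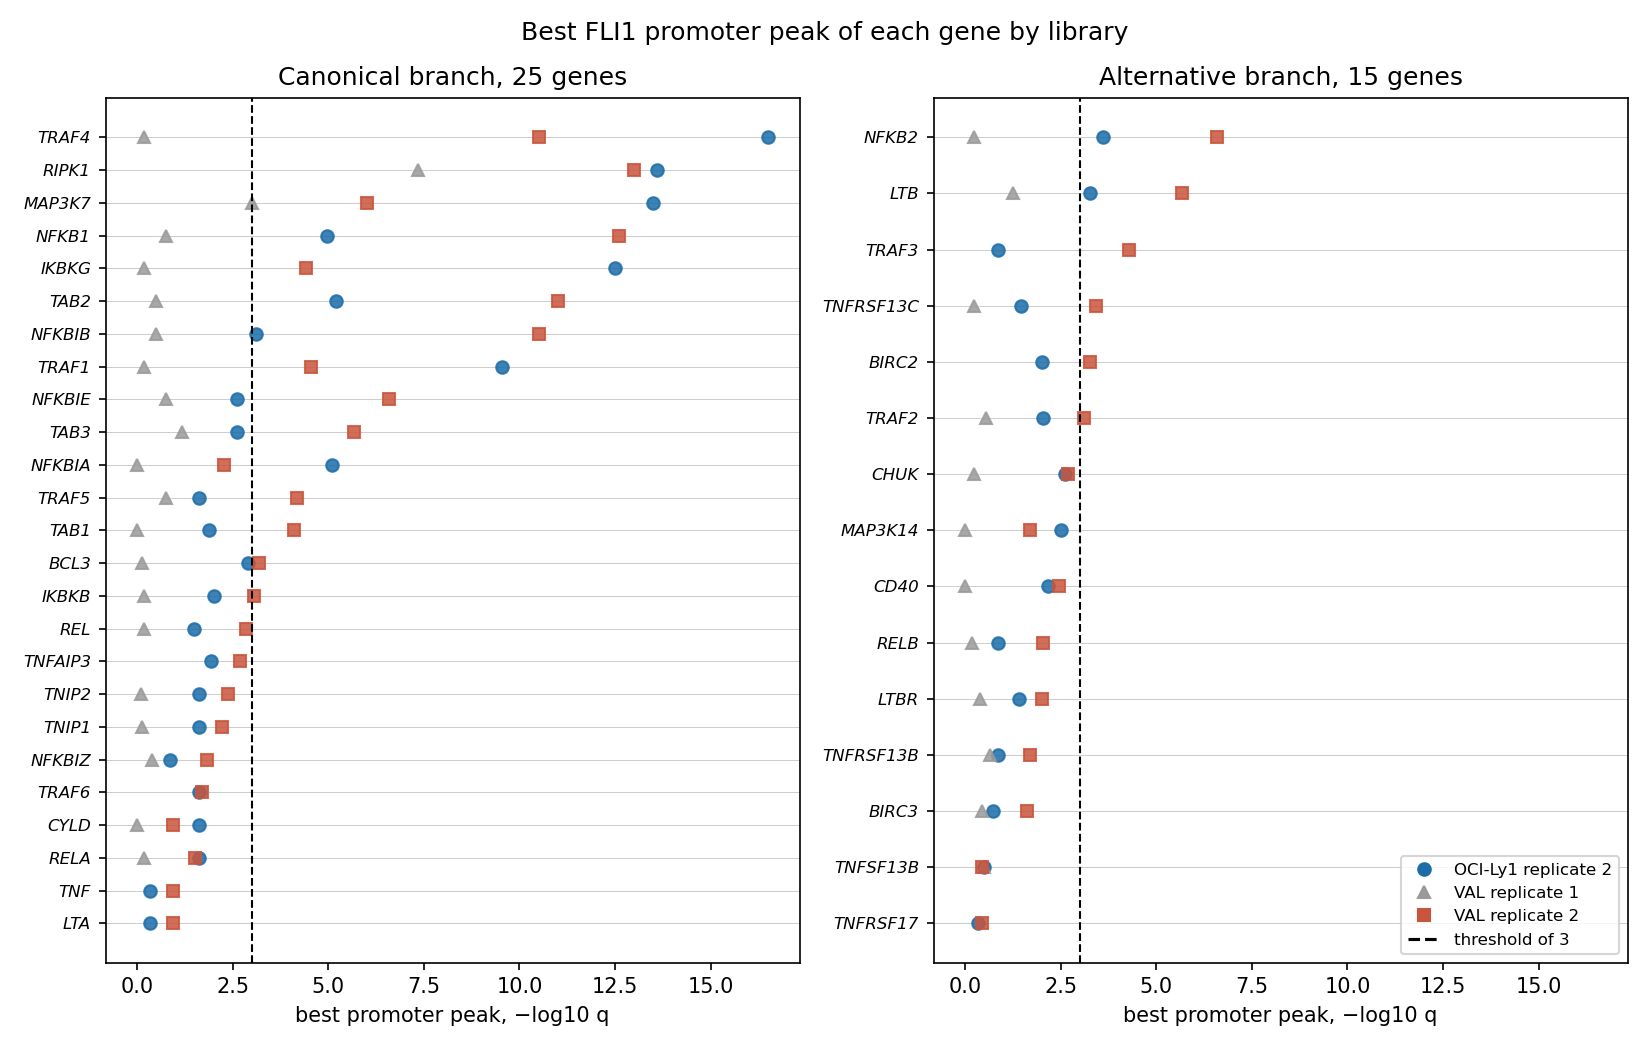
Best promoter peak of each gene (−log10 q, horizontal axis) in OCI-Ly1 r2 (circles), VAL r1 (triangles) and VAL r2 (squares), for the canonical branch on the left and the alternative branch on the right, with the threshold of 3 as a dashed line. Genes with no listed peak in a library have no symbol there. TRAF4 reached 16.5 in OCI-Ly1 r2 and the alternative genes no more than 6.59, and only RIPK1 and MAP3K7 have a triangle at or past the line.

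The TRAF and cIAP adaptors, which couple the receptors to the kinases, had 6 of 8 genes bound in either line (75%, beside 27.4%), and 2 in OCI-Ly1 r2 (25%, beside 19%), the latter near the background share. TRAF4 had the highest value of the 40 genes in a promoter, 16.5 in OCI-Ly1 r2 (fold 11.9, 17 reads, 9.90 to 27.2), against 0.183 in VAL r1 and 10.5 in VAL r2 (fold 9.10, 13 reads, 6.92 to 22.2). Its summits lay 3 bp apart and within the CCGGAAG printed above. TRAF1, itself a known NF-kB target, had 9.54 (11 reads), 0.183 and 4.56 (7 reads) in OCI-Ly1 r2, VAL r1 and VAL r2. Its summits were 52 bp apart.

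Of the adaptors of the complex that holds MAP3K14 in check, TRAF2, TRAF3 and BIRC2 were called in VAL r2 alone. TRAF2 had 2.04, 0.556 and 3.11 in OCI-Ly1 r2, VAL r1 and VAL r2, with 6 reads in the first and the last. TRAF3, whose loss activates the alternative branch, had 0.873 (3 reads), no listed peak and 4.29 (7 reads). BIRC2 (cIAP1) had 2 (6 reads), no listed peak and 3.27 (7 reads), and its neighbor BIRC3 (cIAP2) had 0.740, 0.444 and 1.62 and was bound in none. TRAF5 had 1.61, 0.757 and 4.19, and TRAF6, the adaptor of Toll-like and interleukin-1 receptors, 1.61, no listed peak and 1.71.

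Among the receptors, 1 of 5 (20%) was bound, near the 27.4% of the other genes. TNFRSF13C, the receptor for BAFF, had 1.45 in OCI-Ly1 r2, 0.238 in VAL r1 and 3.43 in VAL r2 (6 reads), with the summit in a coding exon, 594 bp past the TSS. CD40, the receptor for T-cell help, had 2.18, 0 and 2.45, LTBR 1.42, 0.382 and 2, and TNFRSF13B (TACI) 0.873, 0.653 and 1.71. TNFRSF17 (BCMA) had the lowest values of the receptors, 0.344 in OCI-Ly1 r2, no listed peak in VAL r1 and 0.435 in VAL r2, from 2 reads each.

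Among the ligands, 1 of 4 (25%) was bound, also near this share. LTB, the membrane anchor of the lymphotoxin heterotrimer, had 3.27 in OCI-Ly1 r2 (6 reads), 1.25 in VAL r1 (10 reads) and 5.68 in VAL r2 (8 reads), with the summits 20 bp apart and 3 and 23 bp upstream of the TSS. LTA and TNF, its neighbors in the same cluster on chromosome 6, shared their best listed peak and had 0.344, none listed and 0.952. TNFSF13B (BAFF) had 0.496, 0.495 and 0.435. Of these adjacent ligand genes, LTB was thus bound in both lines and LTA and TNF in neither.

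The lines differed in calls. Of the 10 genes bound in VAL only, beside 8.42% of the other genes, all were called through VAL r2. At the VAL r2 summits of its 20 bound genes, OCI-Ly1 r2 listed a peak within 100 bp for 19, of which 15 had a −log10 q of at least 2 and 9 passed. At the 11 sites of OCI-Ly1 r2, VAL r2 listed a peak at 11 and passed at 10. The 95% Poisson intervals of the reads overlapped at all 11 sites of OCI-Ly1 r2 and at the 19 sites of VAL r2 that OCI-Ly1 r2 listed, so that a difference between these libraries was not detectable at those promoter sites at this depth. The remaining site was that of MAP3K7 in VAL r2, where OCI-Ly1 r2 listed no peak. Outside the promoters the intervals stood apart at the REL site, with 1.09 to 10.2 in OCI-Ly1 r2 against 17.8 to 39.3 in VAL r2. They also did at the site inside TRAF5, with 0.619 to 8.77 against 10.7 to 28.4, and overlapped at the MAP3K14 site, with 0.619 to 8.77 against 2.2 to 13.1. These distal sites were listed because they passed in VAL r2, which favors a higher count there, so no difference between the lines is drawn from them. The intervals cover counting error only, and the reads were not scaled to library depth.

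VAL r1 listed fewer of these sites. At the 20 sites of VAL r2, VAL r1 listed a peak at 9, with a highest −log10 q of 2.01, and passed at none. The peaks it listed there had 6 to 10 inferred reads. The inferred local background at passing peaks had a median of 2.26 in VAL r1, against 0.363 in VAL r2 and 0.419 in OCI-Ly1 r2. A site in VAL r1 thus needed more reads to pass, and the part of this background in the missing calls was not tested. Without VAL r2, 11 of the 40 genes were bound in either line and 2 in both, beside 19.3% and 2.81% of the other genes. The count in both lines was then near the background share. The VAL-only calls hence rest on 1 library.

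**Figure D3:**
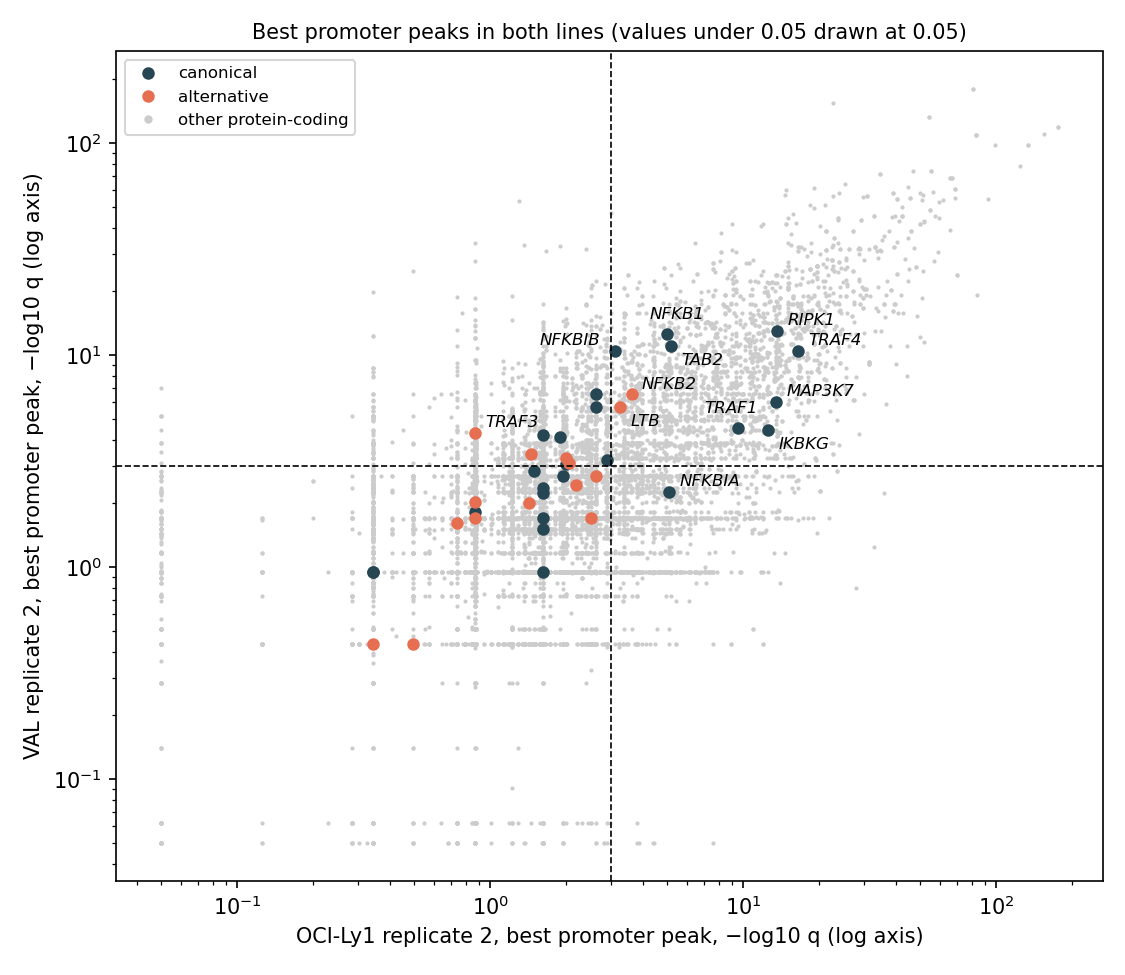
Best promoter peak (−log10 q) in OCI-Ly1 r2 (horizontal, log axis) against VAL r2 (vertical, log axis) for canonical genes, alternative genes and the other protein-coding genes (gray), with dashed lines at 3 and values under 0.05 drawn at 0.05. The 10 genes bound in both lines, NFKBIA and TRAF3 are named, and NFKBIA is the 1 NF-kB gene to the right of the vertical and under the horizontal line.

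The rule keeps peaks centred within 3 kb of a TSS, so the place of a summit inside this range is given as a description. In OCI-Ly1 r2, 11 of 11 summits were within 500 bp of a TSS of the gene and 7 within 100 bp, beside 82.1% and 58% of the other bound genes. In VAL r2 the counts were 17 and 11 of 20, beside 80.1% and 53.4%. The VAL r2 summits beyond 500 bp were those of NFKBIE, BCL3 and TNFRSF13C. Of the 20 VAL r2 summits, 7 lay in the non-coding part of an exon, 6 in an intron, 5 upstream, 1 in a coding exon and 1 downstream. For the 10 genes bound in both OCI-Ly1 r2 and VAL r2, the summits were a median of 25 bp apart, and 7 were within 50 bp. The other genes bound in both had a median of 31 bp, with 67.2% within 50 bp. The NF-kB genes beyond 50 bp were TRAF1 at 52 bp, NFKB2 at 73 bp and MAP3K7 at 1078 bp.

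**Figure D4:**
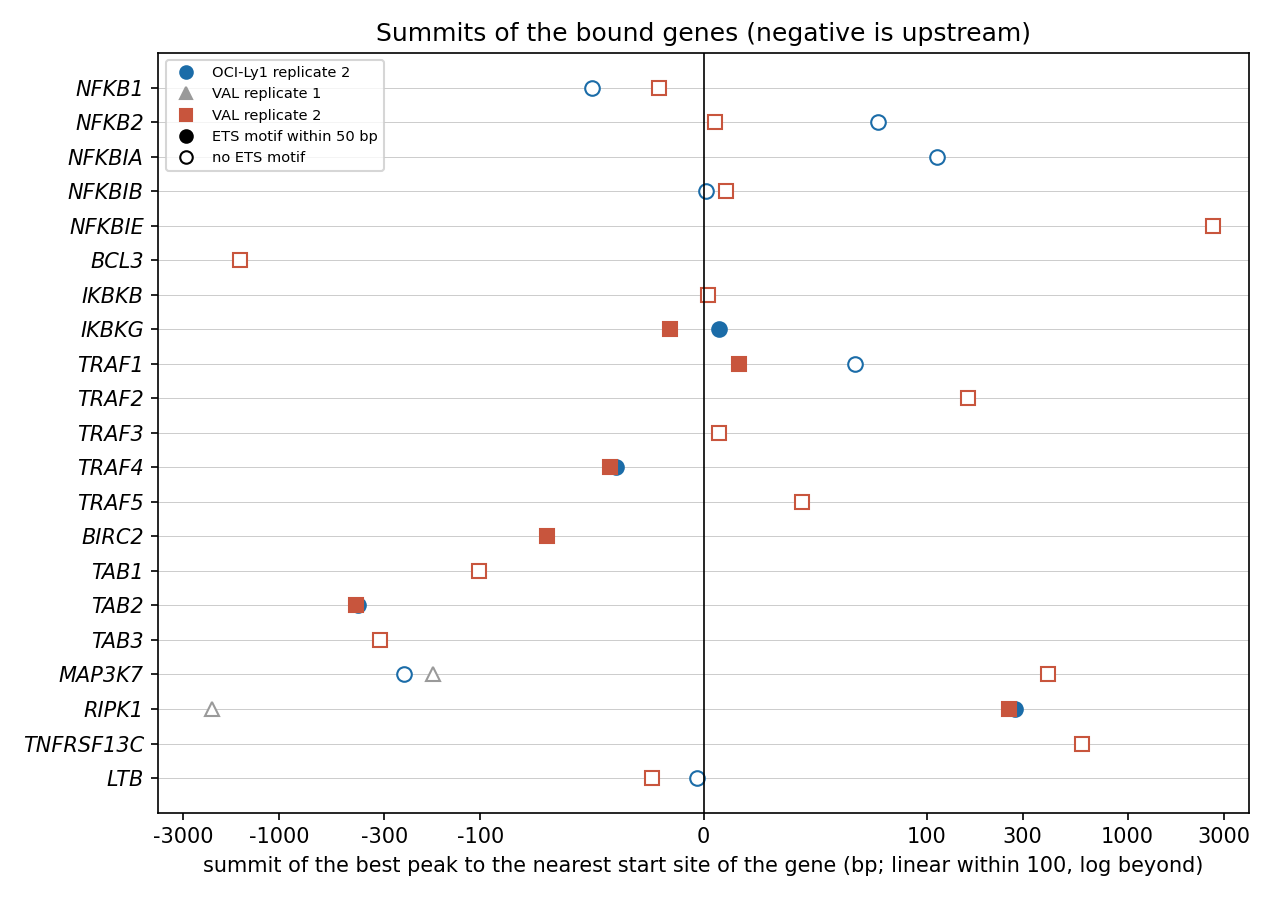
Distance of the best summit from the nearest TSS of each bound gene in bp (horizontal axis, linear within 100 bp and logarithmic beyond, negative upstream), by library, with filled symbols where CCGGAAA or CCGGAAG lay within 50 bp of the summit. Most symbols sit within 500 bp of the TSS, and the filled ones belong to IKBKG, TRAF1, TRAF4, BIRC2, TAB2 and RIPK1.

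The full ETS motif, CCGGAAA or CCGGAAG on either strand within 50 bp of the summit, was found at 4 of 11 best peaks of bound NF-kB genes in OCI-Ly1 r2 (36.4%) and at 6 of 20 in VAL r2 (30%), and at 0 of 2 in VAL r1. The other bound genes had it at 52.2%, 45.9% and 63.7%, respectively. In a window of the same length 250 bp away, the other bound genes had it at 4.69%, 4.02% and 4.75%, and the NF-kB genes at 0 of 11, 1 of 20 and 0 of 2. The share of NF-kB peaks with the motif was thus above that of the neighboring window and under that of the other bound genes in OCI-Ly1 r2 and VAL r2, on few peaks. The shorter GGAA was present at 11 of 11 and 15 of 20 peaks, but also at 8 of 11 and 13 of 20 windows 250 bp away. The other bound genes had it at 89.9% and 88.6%, so the share of the NF-kB genes in VAL r2 (75%) was the lower one, and in VAL r1 it was at 0 of 2 beside 93.7%.

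The motifs nearest to the summits are shown for 4 of the genes with the full motif, with 11 bases on each side, on the strand of the motif, and the motif in capitals. They lie at chr9:123691426-123691454 (minus strand) for TRAF1 in VAL r2, chr11:102217862-102217890 (minus) for BIRC2, chr6:149638231-149638259 (minus) for TAB2, and chr6:3069217-3069245 and chr6:3069181-3069209 (plus) for RIPK1 in OCI-Ly1 r2 and VAL r2.
TRAF1: ttcacactccaCCGGAAGctccgggcctg
BIRC2: ggaggctggggCCGGAAAgcggaaccgag
TAB2: gctggccgggtCCGGAAGtgggtggcggg
RIPK1, OCI-Ly1: cgcgggcgctcCCGGAAGtcaggggtgct
RIPK1, VAL: ccccgccggtaCCGGAAGtcgggcggtgg
RIPK1 had 2 copies in the windows of both lines, each summit lying nearest to a different one. BIRC2 carried the CCGGAAA form and the others shown CCGGAAG.

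Of the genes bound in both lines without the full motif within 50 bp of the summit, 3 are shown. The GGAA nearest to the summit is given with 12 bases on each side. These are NFKB2 in VAL r2 (chr10:104153856-104153883, minus strand), NFKBIB (chr19:39390587-39390614, plus strand) and MAP3K7 in OCI-Ly1 r2 (chr6:91297035-91297062, plus strand).
NFKB2: gttagcggaagaGGAAggaagttattct
NFKBIB: ttcccgcagggcGGAAgctccagaactc
MAP3K7: aagtgcgcgaacGGAAgtggcgcggaac
The NFKB2 stretch had further GGAA cores on both sides of the one in capitals, and MAP3K7 had CGGAAG without the leading C of the full motif.

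The kB motif, searched on both strands after the summit sequences had been seen, lay within 50 bp of the summit at 5 of 11 bound NF-kB genes in OCI-Ly1 r2 (45.5%), namely NFKB1, NFKB2, NFKBIB, RIPK1 and LTB, beside 3.96% of the other bound genes. In VAL r2 it was found at 5 of 20 (25%), namely NFKB1, NFKBIB, TRAF2, RIPK1 and LTB, beside 5.02%. At windows 250 bp away the counts were 1 of 11 and 0 of 20, and the shares of the other genes 5.22% and 4.83%. Of these genes RIPK1 had the full ETS motif as well, and the kB motif can itself contain GGAA, as at NFKB1. In RefSeq promoters of 300 bases (GRCh38.p14), which matched 34 of the 40 genes, 15 genes (44.1%) had a kB match, against 13.3% of all genes in that table. The share was 44.4% of 18 matched bound genes and 43.8% of 16 matched unbound genes. The full ETS motif was in 6 of the 18 bound genes (33.3%) and in 1 of the 16 unbound genes (6.25%), which was CHUK, beside 15.8% of all genes. The bound genes with it included NFKBIB and MAP3K7, which lacked it within 50 bp of their summits. These matches are descriptions of letters in a window, not of sites in use.

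Beyond the promoters, 6 passing peaks more than 3 kb from every TSS had an NF-kB gene as their nearest protein-coding gene. The REL site in both VAL replicates made up 2 of them. Such a peak was found for 2 of the 40 genes in OCI-Ly1 r2, 1 in VAL r1 and 3 in VAL r2. The other protein-coding genes had one at 5.63%, 1.44% and 7.86%, so the counts of NF-kB genes were near the background share. TRAF5 had a peak inside the gene at chr1:211526657-211527027, 7.14 kb from its nearest TSS, with a −log10 q of 12.4 (fold 9.15, 18 reads) in VAL r2, 0.344 (3 reads) in OCI-Ly1 r2 and none listed in VAL r1. This was higher than the 4.19 of its promoter. MAP3K7 had a peak 78.5 kb away in OCI-Ly1 r2 (7.78, 10 reads, with the full ETS motif), with 0.757 in VAL r1 and none listed in VAL r2. CD40 had one 5.65 kb away in OCI-Ly1 r2 (3.71, 6 reads) with none listed in either VAL replicate, and MAP3K14 one 17.3 kb away in VAL r2 (3.42, 6 reads) with 0.873 in OCI-Ly1 r2. REL, MAP3K14 and CD40 were among the genes with no bound promoter. Nearness is the measure here, and contact of these sites with the promoters was not measured.

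A wider list of 36 other NF-kB pathway genes, such as further receptors, ubiquitin ligases and upstream adaptors, had 16 bound in either line (44.4%), 12 in each of OCI-Ly1 r2 and VAL r2 (33.3%), 1 in VAL r1 (2.78%) and 8 in both lines (22.2%). These shares stood between those of the 40 genes and of all other protein-coding genes in VAL r2, in either line and in both lines, and above the 40 genes in OCI-Ly1 r2. Those bound in both lines included 2 subunits of the linear ubiquitin ligase, RBCK1, with 17.2 in OCI-Ly1 r2, 5.35 in VAL r1 and 9.83 in VAL r2, and SHARPIN, with 18.5, 1.72 and 13. The ubiquitin-conjugating enzymes that build the chains read by TAB2 were bound too, UBE2N with 9.75, 0.382 and 9.8, and its cofactor UBE2V1 with 6.2, none listed and 7.91. TRAF7 had 21, 1.56 and 11.2, NFKBID, a nuclear IkB protein, 4.11, 1.02 and 10, TBK1, an IKK-related kinase, 3.99, 0.569 and 4.55, and TAX1BP1, an adaptor of TNFAIP3, 3.5, 0.495 and 3.87. RBCK1 was the 1 gene of this list that passed in all 3 libraries.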

How the data were processed

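FLI1 ChIP-Seq of OCI-Ly1 and VAL was used as 1 deposited peak list per library, 4 in all. Per the paper's methods the authors mapped reads to GRCh37 with bowtie2 and kept uniquely mapped, de-duplicated reads, and the labels list hg19, BWA and CASAVA 1.4. Those methods give HOMER as the peak caller, with the FDR held at 0.001, but the lists are in MACS2 narrowPeak layout. Whether HOMER made them, and which control and settings were used, is not given in the sources used here. The deposited columns are a fold enrichment over the local background (a ratio), −log10 p and −log10 q.

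The read count at each summit was solved from fold and −log10 p with the MACS formula, an assumption about the caller. A solution existed for 5350 of 5354, 972 of 973 and 6471 of 6474 passing peaks of OCI-Ly1 r2, VAL r1 and VAL r2, and the simulated reads were returned for every self-test peak. The read counts have exact 95% Poisson intervals. TSS came from GENCODE release 44 on GRCh37. The self-test also recovered planted bound genes and motifs. Groups came from the sample titles, and replicates are not stated to be separate cultures.

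The members, their branches and the list of other pathway genes were chosen with earlier results of these data known. All members were named; other genes were named only if of that list and bound in both lines, or sharing a member's passing peak, except 1 that is not reported here. Alternatives covered the threshold, fold, promoter definition, libraries, branches and motif. The tools were pysam 0.24.0, scipy 1.17.1, pandas 2.3.3, numpy 2.4.6 and matplotlib 3.10.9 in Python 3.11.15. RefSeq promoters came from the GRCh38.p14 table. Input DNA and OCI-Ly1 replicate 1 were left out, and no genomic sequence of IKBKB is printed.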

Additional observations from a re-analysis of the deposited data

How the results depend on the processing

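Across 99 values of 17 counts under the alternatives, 72 stayed within 1.5 times the count reported and 27 did not. This measure compares counts alone, without the number of genes or the background share. Leaving out the shared genes, which turned the order of the branches, stayed within it. So did the OCI-Ly1 r2 count with first starts only, which came near the background share. At a −log10 q of at least 5 the bound genes numbered 7 in OCI-Ly1 r2, 1 in VAL r1, 10 in VAL r2, 13 in either line and 4 in both, beside 11.9%, 1.79%, 12.2%, 16.6% and 7.58% of the other genes. The counts in VAL r1 and in both lines were near the background share. At that threshold 2 alternative genes and 10 other pathway genes were bound in either line, and distal peaks fell to 1 in OCI-Ly1 r2 and 0 in VAL r1. At 2, 20 genes were bound in OCI-Ly1 r2 and 19 in both lines (beside 29.4% and 20%), and 10 alternative genes in either line (beside 43.3%). VAL r1 kept 1 gene with a 1 kb window, with TSS of protein-coding transcripts only and with the first start of each gene only, beside 2.82%, 2.89% and 2.61% of the other genes, which puts its share of 2.5% under theirs. Leaving out 1 VAL library gave 11 to 21 genes in either line, 9 to 15 of them canonical and 2 to 6 alternative, beside 19.3% to 27.3% of the other genes. It gave 2 to 10 genes in both lines, beside 2.81% to 12.5%. Requiring both VAL replicates gave 11 genes in either line, 9 canonical and 2 alternative, beside 19.2%, and 2 in both lines, beside 2.73%. With GGAA as the motif the best peaks holding it rose to 11 and 15, and in the window 250 bp away CCGGAAA or CCGGAAG was found at 0 and 1. No paired analysis was possible because no test was made: neither line was treated, and the usable data of OCI-Ly1 come from 1 library.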
